A study of Mus musculus with 6 samples.

Results

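The genes described here encode 10 secreted proteins of the hepatic acute phase response: the orosomucoids Orm1, Orm2 and Orm3, the pentraxins Apcs and Crp, the lipopolysaccharide-binding protein Lbp, the inter-alpha-trypsin inhibitor heavy chains Itih3 and Itih4, the interleukin 1 receptor antagonist Il1rn, and Ambp. They were chosen by name, with earlier results of these data known. Their RefSeq accessions stand beside 12 of the 56605 non-control probes of the array, and they are 10 of the 22911 genes that could be named there. The livers came from 3 male mice with a liver-specific Elovl6 knockout (LKO) and from 3 male control mice, whose sample titles call them Flox. LKO and control mice alike received high-sucrose feed (D11725) over 14 days, and food was withdrawn 4 hours before the livers were taken, so neither diet nor fasting differs between the groups. The strain and age of the mice and the driver of the recombinase are not given in the sources used here. Each liver went onto its own one-colour Agilent array, which gives 1 signal per probe and mouse.

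In an acute phase response, interleukin 6 and interleukin 1 reach hepatocytes, signal through STAT3, NF-kB and C/EBP transcription factors, and shift the secretion of plasma proteins. Orosomucoids are abundant plasma glycoproteins of the lipocalin fold that carry lipophilic ligands. Pentraxins are ring-shaped pattern recognition proteins that bind microbial surfaces and dying cells and recruit complement; in the mouse serum amyloid P component (Apcs) is the strongly induced pentraxin, whereas in humans it is C-reactive protein (Crp). Lbp hands lipopolysaccharide to CD14, the inter-alpha heavy chains are transferred onto hyaluronan, Il1rn blocks the interleukin 1 receptor, and Ambp encodes a precursor that is cut into alpha-1-microglobulin and bikunin, the light chain of the inter-alpha inhibitors.

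Elovl6, the elongase that turns palmitate into stearate, had scaled signals of 64.1, 94.0 and 102 in LKO livers, against 5994, 12079 and 6409 in control livers, and was 91.0-fold lower (limma adjusted p = 0.00279). Every array thus matched its label, although whether its probe falls within the deleted region is not known here. The scaled signal used throughout is the deposited processed signal after the 75th percentile of every array was brought to 281 units. On each array 52.1% to 56.6% of spots exceeded background clearly, and 0 were saturated. All 10 genes were well above background on all 6 arrays. All arrays lay on 1 slide, with LKO 2 and LKO 3 in its column 2 and LKO 1 with the 3 controls in its column 1. Signals compare a gene between livers, not a gene with another gene. All 10 hepatocyte markers were well above background on all arrays, 6 with higher and 4 with lower means in LKO and a median log2 change of 0.02. The smallest p among them were those of G6pc, the gene of glucose 6-phosphatase, at a log2 change of -1.18 ± 0.50 (SE, limma adjusted p = 0.457), of Fabp1, a fatty acid binding protein, at -0.25 ± 0.11 (SE, limma adjusted p = 0.460), and of Ttr, the gene of transthyretin, at -0.16 ± 0.08 (SE, limma adjusted p = 0.527). The groups overlapped for G6pc and Fabp1, and every LKO liver lay below every control for Ttr.

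All 10 genes had higher mean signals in LKO livers than in control livers, by 1.17-fold for Ambp up to 4.33-fold for Orm3, but 0 of them passed the adjusted threshold of 0.05 (limma, Benjamini-Hochberg over all 14171 genes tested), with adjusted p between 0.141 and 0.571. A higher mean in LKO was found for 50.8% of all genes tested. Over the array 0.0141% of genes passed that threshold. The median log2 change was 0.75 over the 10 genes, against 0.00 over all genes tested. At an unadjusted limma p under 0.05, 9 of the 10 genes were higher in LKO and 0 were lower, where 5.56% of all genes were higher and 5.6% lower. The groups did not overlap for 8 of the 10, every LKO liver lying above every control liver, which held for 8.11% of all genes, while 9.21% of all genes had every LKO liver below every control and 0 of the 10 did. The groups overlapped for Apcs and Il1rn. Because the 10 genes were chosen with earlier results of these data known, these counts are not independent evidence. With 3 mice against 3, an exact two-sided permutation test of a single gene cannot give a p below 0.1. In whole liver, more cells of a type and more RNA per cell cannot be told apart.

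**Figure D1:**
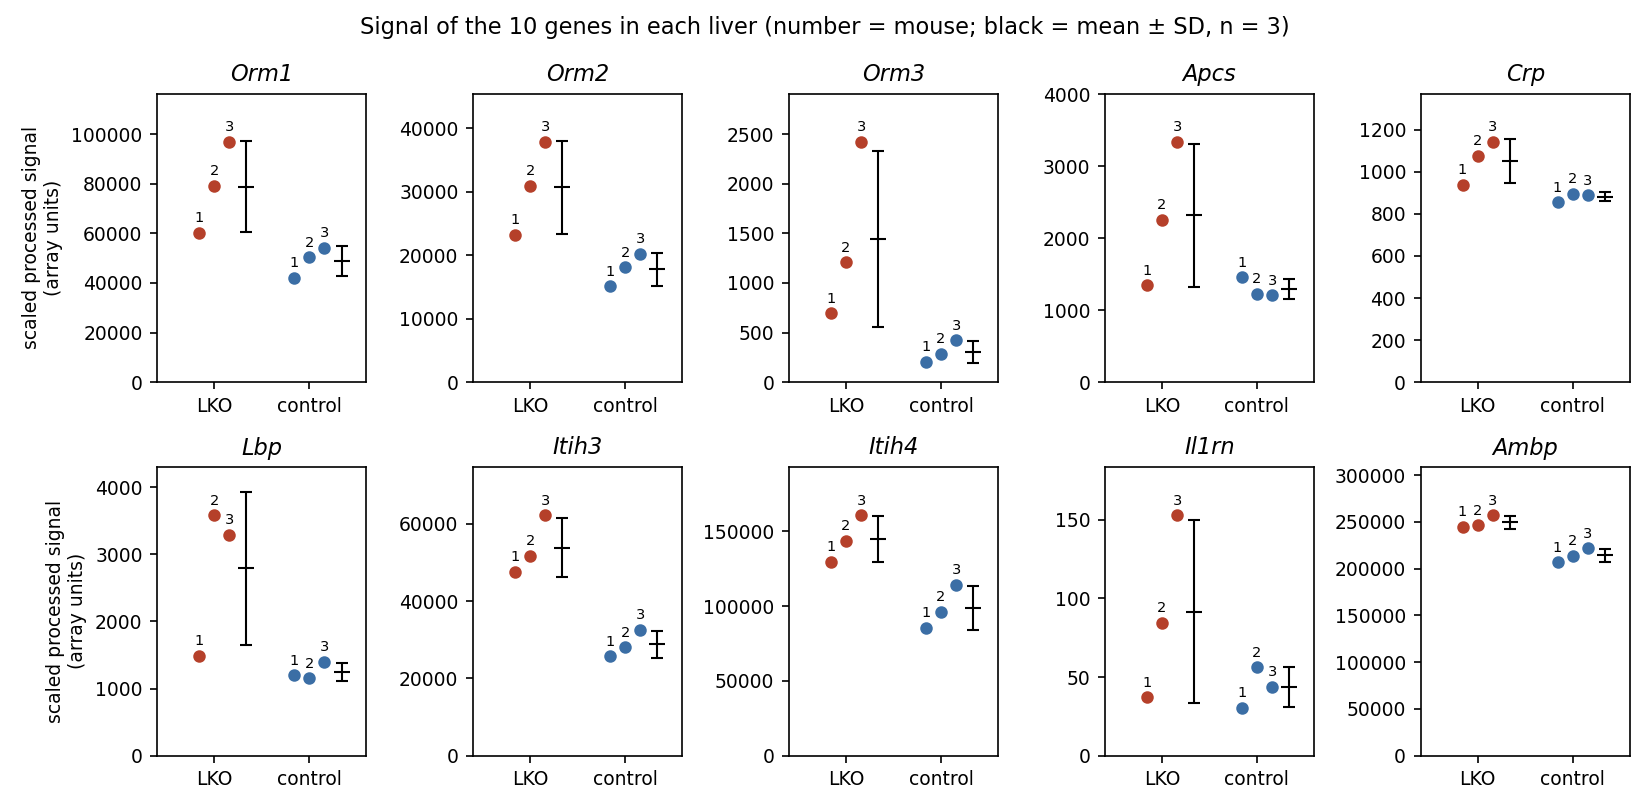
Scaled processed signal (array units, linear axis from 0) of each of the 10 genes in the 3 LKO livers (red) and the 3 control livers (blue), with mouse numbers; black marks show the mean and SD of 3 mice. The panels have their own scales, and the LKO points lie above all control points in every panel except those of Apcs and Il1rn, where LKO 1 lies among the controls.

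The orosomucoid genes Orm1, Orm3 and Orm2 follow each other on mouse chromosome 4 with no other coding gene between them in the RefSeq annotation. Orm3 had the largest difference of the 10 genes. Its scaled signals were 694, 1207 and 2425 in LKO livers, against 206, 288 and 421 in control livers, so the lowest LKO liver stood above the highest control. The fold difference was 4.33 (log2 change 2.12 ± 0.47 SE with 3 mice per group, limma adjusted p = 0.225), and the means were 1442 ± 889 in LKO livers and 305 ± 108 in control livers (SD, n = 3 each). Orm3 was 3.13-fold higher without LKO 3 and 5.85-fold higher without LKO 1.

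Orm1 had scaled signals of 60242, 79262 and 96956 in LKO livers, against 42145, 50385 and 54148 in control livers. The LKO livers again lay above all controls, with LKO 3 the highest. The difference was 1.59-fold (log2 change 0.67 ± 0.19 SE with 3 mice per group, limma adjusted p = 0.297). Orm2 had 23262, 30959 and 37904 in LKO livers, against 15075, 18120 and 20235 in control livers, and the mice stood in the same order as for Orm1 in both groups. It was 1.70-fold higher in LKO livers (log2 change 0.77 ± 0.20 SE with 3 mice per group, limma adjusted p = 0.267). The orosomucoid genes are close copies, and the files hold no probe sequences, so how far each probe separates Orm1, Orm2 and Orm3 was not tested.

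The fold difference of Orm3 was above those of Orm1 and Orm2, and the ratios between these genes within each liver were compared. The log2 ratio of Orm3 to Orm1, taken within each liver and set against the control mean, was 0.94, 1.34 and 2.06 in LKO livers, against -0.30, -0.07 and 0.37 in control livers. The groups did not overlap, and the ratio was 2.72 times larger in LKO (exact permutation p = 0.1, the smallest possible, 0.133 after adjustment over the 4 gene pairs compared). The ratio of Orm3 to Orm2 was 2.54 times larger in LKO with the same p. The log2 ratio of Orm2 to Orm1 shifted by 0.10, with little spread. It was 0.09, 0.10 and 0.10 in LKO livers, against -0.02, -0.02 and 0.04 in control livers, with no overlap and the same p.

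The promoter windows of Orm3 and Orm2 are printed here because the genes are neighbours of similar sequence with fold differences of 4.33 and 1.70. They are RefSeq sequences of GRCm38.p6, from 250 bases before to 50 bases after the start, 5′ to 3′ on the gene's strand. Capitals mark matches to the motifs searched.
Orm3, chr4:63355908-63356207, plus strand: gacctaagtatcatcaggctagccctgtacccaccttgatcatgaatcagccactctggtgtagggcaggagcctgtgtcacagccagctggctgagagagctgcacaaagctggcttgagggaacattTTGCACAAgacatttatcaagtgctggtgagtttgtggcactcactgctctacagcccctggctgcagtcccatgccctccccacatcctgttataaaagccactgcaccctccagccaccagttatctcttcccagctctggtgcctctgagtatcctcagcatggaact
Orm2, chr4:63362199-63362498, plus strand: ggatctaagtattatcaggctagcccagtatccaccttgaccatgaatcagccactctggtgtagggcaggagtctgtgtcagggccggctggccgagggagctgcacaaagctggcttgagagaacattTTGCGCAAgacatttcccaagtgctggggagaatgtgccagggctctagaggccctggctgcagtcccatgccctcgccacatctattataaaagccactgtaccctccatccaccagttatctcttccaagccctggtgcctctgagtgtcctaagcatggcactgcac

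Over 295 aligned bases the Orm3 and Orm2 windows were 89.2% identical. Each held 1 match to the C/EBP motif TTGCNNAA, whose first base lay at position -121 relative to the start in Orm3 and at -120 in Orm2. The matched letters were ttgcacaa in Orm3, which fit the motif on the plus strand alone, and ttgcgcaa in Orm2, a palindrome that fits it on both. This motif, searched on both strands, was found in 10.8% of the 32851 RefSeq promoter windows of the same length. Windows were at hand for 8 of the 10 genes, but not for Orm1 and Lbp, which were not searched. Among the 8, the C/EBP motif was found in Orm2 and Orm3.

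The pentraxin genes Crp and Apcs are direct neighbours on chromosome 1. Apcs, the gene of serum amyloid P component, had scaled signals of 1350, 2257 and 3345 in LKO livers, against 1462, 1229 and 1213 in control livers. LKO 1 thus lay below control 1, while LKO 2 and LKO 3 lay above all controls. The difference was 1.67-fold (log2 change 0.74 ± 0.31 SE with 3 mice per group, limma adjusted p = 0.443). It was 1.35-fold without LKO 3 and 2.12-fold without LKO 1.

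Crp had scaled signals of 939, 1076 and 1143 in LKO livers, against 856, 896 and 889 in control livers. All LKO livers lay above all controls, by a small margin, at 1.19-fold (log2 change 0.25 ± 0.10 SE with 3 mice per group, limma adjusted p = 0.425). Set against its control mean, the within-liver log2 ratio of Apcs to Crp was -0.04, 0.51 and 0.99 in LKO livers, against 0.21, -0.10 and -0.11 in control livers. These groups overlapped, and the difference of 0.49 had an exact permutation p of 0.2, also 0.2 after adjustment over the 4 pairs. With 3 mice per group this test could not reach 0.05 for any values, so it says nothing on whether the pentraxin genes changed alike.

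The windows of the pentraxins and of Itih4 are printed because they are the other members' windows with a motif match, in each case to a STAT motif, and were read from the same RefSeq table.
Apcs, chr1:172895005-172895304, minus strand: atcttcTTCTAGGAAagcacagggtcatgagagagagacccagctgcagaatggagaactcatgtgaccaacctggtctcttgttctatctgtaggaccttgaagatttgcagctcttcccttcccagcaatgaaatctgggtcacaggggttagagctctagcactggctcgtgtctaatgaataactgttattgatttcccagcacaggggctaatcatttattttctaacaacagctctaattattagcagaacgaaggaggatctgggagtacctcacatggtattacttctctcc
Crp, chr1:172697806-172698105, plus strand: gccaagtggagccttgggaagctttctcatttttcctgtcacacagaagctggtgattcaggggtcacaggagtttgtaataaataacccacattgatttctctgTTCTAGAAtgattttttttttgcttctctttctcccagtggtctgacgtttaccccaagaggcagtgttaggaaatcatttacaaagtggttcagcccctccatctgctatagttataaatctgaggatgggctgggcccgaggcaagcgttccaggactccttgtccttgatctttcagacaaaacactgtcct
Itih4, chr14:30886226-30886525, plus strand: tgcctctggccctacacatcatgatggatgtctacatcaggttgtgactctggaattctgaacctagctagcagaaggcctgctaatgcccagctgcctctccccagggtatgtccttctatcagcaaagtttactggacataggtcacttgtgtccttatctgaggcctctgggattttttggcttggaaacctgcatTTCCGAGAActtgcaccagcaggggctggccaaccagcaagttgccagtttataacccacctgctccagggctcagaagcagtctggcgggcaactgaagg

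Apcs and Itih4 held 1 match each to TTCNNNGAA, the STAT motif with a spacer of 3 bases, beginning at position -244 relative to the start in Apcs and at -51 in Itih4. Crp held 1 match to TTCNNGAA, the form with a spacer of 2 bases, beginning at position -145. Both motifs read alike on either strand. The form with 3 bases was found in 8.3% of all windows and the form with 2 bases in 8.52%. The NF-kB motif GGGNNTTCC, found in 5.82% of all windows, and the HNF1 motif GTTAATNA, found in 2.54%, were in 0 windows of these genes. No matches overlapped. The Apcs and Crp windows were 59.4% identical over 271 aligned bases.

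Lbp, the gene of lipopolysaccharide-binding protein, had scaled signals of 1490, 3585 and 3294 in LKO livers, against 1198, 1153 and 1403 in control livers. LKO 1 stood just above the highest control, and LKO 2 and LKO 3 exceeded LKO 1 by 2.31-fold on average. The difference was 2.09-fold (log2 change 1.06 ± 0.33 SE with 3 mice per group, limma adjusted p = 0.330). Lbp was the only one of the 10 genes to pass the adjusted threshold under any alternative, and it did so without LKO 1, at 2.76-fold (limma adjusted p = 0.0324). It was also the only one of the 10 in which LKO 2 and not LKO 3 was the highest LKO liver.

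Genes that act with Lbp in sensing lipopolysaccharide were listed beside it. Of 12 listed, 9 were tested, 5 of them higher in LKO, with a median log2 change of 0.02, 0 past the adjusted threshold and 0 at an unadjusted limma p under 0.05. Those with the smallest p were Myd88, the adaptor of Toll-like receptors, at 1.15-fold higher (adjusted p = 0.523), Cd14, the coreceptor that takes lipopolysaccharide from Lbp, at 1.25-fold higher (adjusted p = 0.640), and Ly96, the partner of Tlr4, at a log2 change of -0.27 ± 0.19 (SE, adjusted p = 0.652). The gene of the related protein Bpi, which lies next to Lbp on chromosome 2, was not well above background on any array.

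Itih3 had the smallest p of the 10 genes. Its scaled signals were 47550, 51726 and 62247 in LKO livers, against 25680, 28081 and 32595 in control livers. The groups stood well apart, since the spread within each group was at most 1.31-fold. The difference was 1.87-fold (log2 change 0.90 ± 0.14 SE with 3 mice per group, limma adjusted p = 0.141). Over the 16 alternatives its log2 change lay between 0.73 and 0.99.

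Itih4, the neighbour of Itih3 on chromosome 14, had scaled signals of 129894, 143759 and 160937 in LKO livers, against 85721, 96306 and 114245 in control livers. The groups did not overlap, and the difference was 1.47-fold (log2 change 0.56 ± 0.14 SE with 3 mice per group, limma adjusted p = 0.255). A second probe of Itih4 gave 1.53-fold, with the same order of the mice in both groups. Itih1, which lies on the other side of Itih3, was 1.30-fold higher (log2 change 0.38 ± 0.10, SE, limma adjusted p = 0.267), and Itih2 was 1.17-fold higher (limma adjusted p = 0.442). In neither did the groups overlap. Heavy chains 1 and 2 are the ones joined to bikunin in the classical inter-alpha inhibitor, and heavy chain 3 forms pre-alpha inhibitor.

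Ambp, which supplies bikunin, had scaled signals of 244828, 246492 and 257161 in LKO livers, against 206868, 213878 and 221518 in control livers. The LKO livers lay above all controls and within 1.05-fold of each other. The difference was 1.17-fold (log2 change 0.22 ± 0.08 SE with 3 mice per group, limma adjusted p = 0.380), the smallest of the 10. Of the list of inter-alpha relatives and hyaluronan partners, 6 of 10 were tested, 5 of them higher, with a median log2 change of 0.10 and 0 past the adjusted threshold. The third by p, Spint2, a Kunitz-type protease inhibitor, was 1.09-fold higher (limma adjusted p = 0.640). The hyaluronan synthase genes Has1, Has2 and Has3 and Tnfaip6, the transferase of heavy chains, did not pass the filter on dim probes and were not tested.

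Il1rn, the only cytokine antagonist of the set, had a dim probe. Its scaled signals were 37.2, 84.5 and 153 in LKO livers, against 30.6, 56.1 and 43.8 in control livers. LKO 1 lay between control 1 and control 3, and LKO 3 was 4.11-fold above LKO 1. The difference was 1.86-fold (log2 change 0.89 ± 0.50 SE with 3 mice per group, limma adjusted p = 0.571), with a 95% interval of the log2 change from -0.30 to 2.09. It was 1.33-fold without LKO 3 and 2.69-fold without LKO 1. A second probe of Il1rn was well above background on 1 array, that of LKO 3, and on 0 control arrays.

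**Figure D2:**
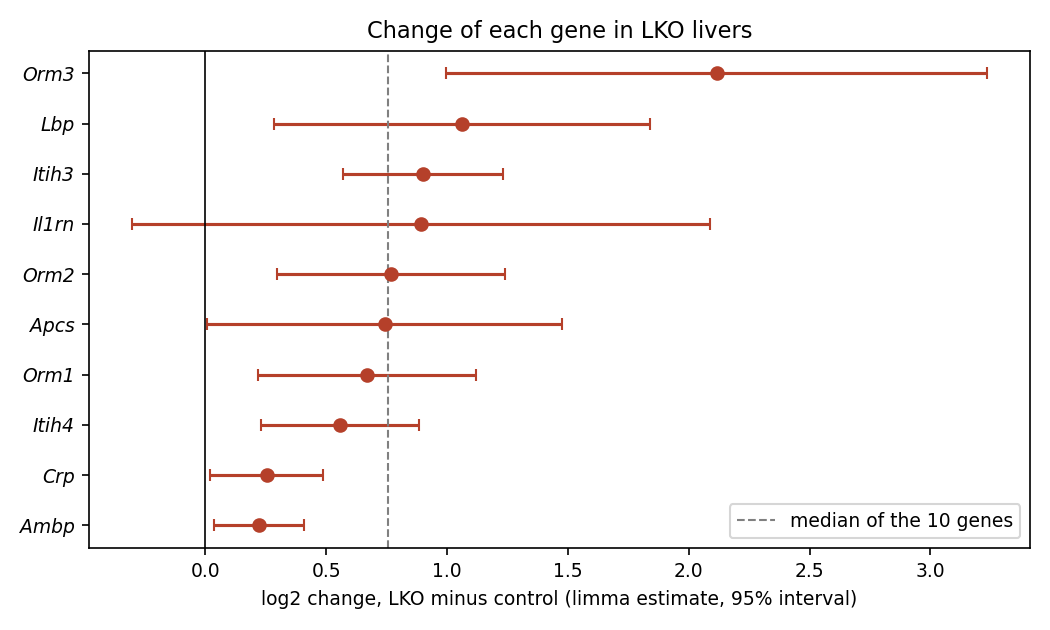
Limma estimates of the log2 change, LKO minus control, for the 10 genes, ordered by size, with 95% intervals (horizontal bars, n = 3 mice per group, not adjusted for the number of genes). The interval of Il1rn crosses 0, that of Apcs nearly reaches it, and the dashed line marks the median of 0.75.

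Genes of the interleukin 1 pathway, in which Il1rn acts, were set beside it. Of 14 listed, 13 were tested and 11 were higher in LKO, with a median log2 change of 0.25; 5 were higher at an unadjusted limma p under 0.05, and 0 passed the adjusted threshold. Il1r1, the signalling receptor that Il1rn occupies, had scaled signals of 454, 456 and 549 in LKO livers, against 270, 350 and 356 in control livers, a 1.5-fold difference without overlap (limma adjusted p = 0.252). Nfkbia, the feedback inhibitor of NF-kB, was 1.33-fold higher (limma adjusted p = 0.341), and Nfkbiz, a nuclear cofactor of NF-kB, was 2.09-fold higher (limma adjusted p = 0.358), with groups that overlapped. The ligand gene Il1b had 71.2, 86.0 and 340 in LKO livers, against 333, 106 and 140 in control livers, so LKO 1 and LKO 2 lay below every control and LKO 3 above every control.

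Markers of myeloid cells, which also make Il1rn, were measured beside it. Of 9 neutrophil markers on the array 6 were above background on any array, with Mpo, Ngp and Cxcr2 above it on none. Of the 6 tested, 4 had higher and 2 lower means in LKO, with a median log2 change of 0.70, 3 were higher at an unadjusted limma p under 0.05 and 0 passed the adjusted threshold. S100a8 had 205, 508 and 1120 in LKO livers, against 59.2, 130 and 97.7 in control livers (5.37-fold, limma adjusted p = 0.261). It was 3.55-fold higher without LKO 3, 8.29-fold without LKO 1 and 2.26-fold with the slide column as a covariate. S100a9 was 4.63-fold higher (limma adjusted p = 0.278), 3.08-fold without LKO 3, 7.21-fold without LKO 1 and 1.91-fold with the slide column. Retnlg was 2.34-fold higher (limma adjusted p = 0.278). These 3 genes had LKO 3 highest and LKO 1 lowest among the LKO livers, as Il1rn did. All 10 genes described here had LKO 1 lowest, and 9 of 10 had LKO 3 highest. The order is thus not particular to Il1rn. The groups of S100a8, S100a9 and Retnlg did not overlap. The other 3 overlapped between groups, Camp at 1.13-fold higher and Elane and Csf3r at log2 changes of -0.19 and -0.04. The summed signal of the list ranged from 20829 to 24321 in LKO livers and from 19271 to 22360 in control livers, but most of it came from the probe of Csf3r, at 18961, 16705 and 18183 in LKO livers, against 16894, 18582 and 20113 in control livers. Of the Kupffer cell and macrophage markers 10 of 10 were above background on all arrays, all with higher means in LKO by a median log2 change of 0.21, and their summed signal ranged from 30689 to 36525 in LKO livers and from 24787 to 34032 in control livers. Lyz2 was 1.38-fold (limma adjusted p = 0.267), Marco 2.38-fold (limma adjusted p = 0.349) and Cd68 1.28-fold higher (limma adjusted p = 0.496). The part of these cells in the Il1rn values was not tested.

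The 10 genes ordered the LKO livers alike. LKO 1 was the lowest LKO liver for all 10 genes, and LKO 3 was the highest for 9 of 10. LKO 1 lay above every control for 8 of the 10 genes, and LKO 2 and LKO 3 did so for 10 of 10. The shares of all genes with these orders were not computed, so whether the order is particular to these genes was not tested. Averaged over the 10 genes, the log2 signal minus the control mean was 0.35 in LKO 1, 0.88 in LKO 2 and 1.23 in LKO 3, against -0.17, 0.03 and 0.15 in control 1, 2 and 3. Among the controls, control 1 was the lowest for 8 of 10 genes and control 3 the highest for 7. Over the 6 arrays, Pearson's r of each gene with the mean of the other 9 lay between 0.874 for Il1rn and 0.996 for Orm1, a description of points that share the difference between the groups and the array.

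**Figure D3:**
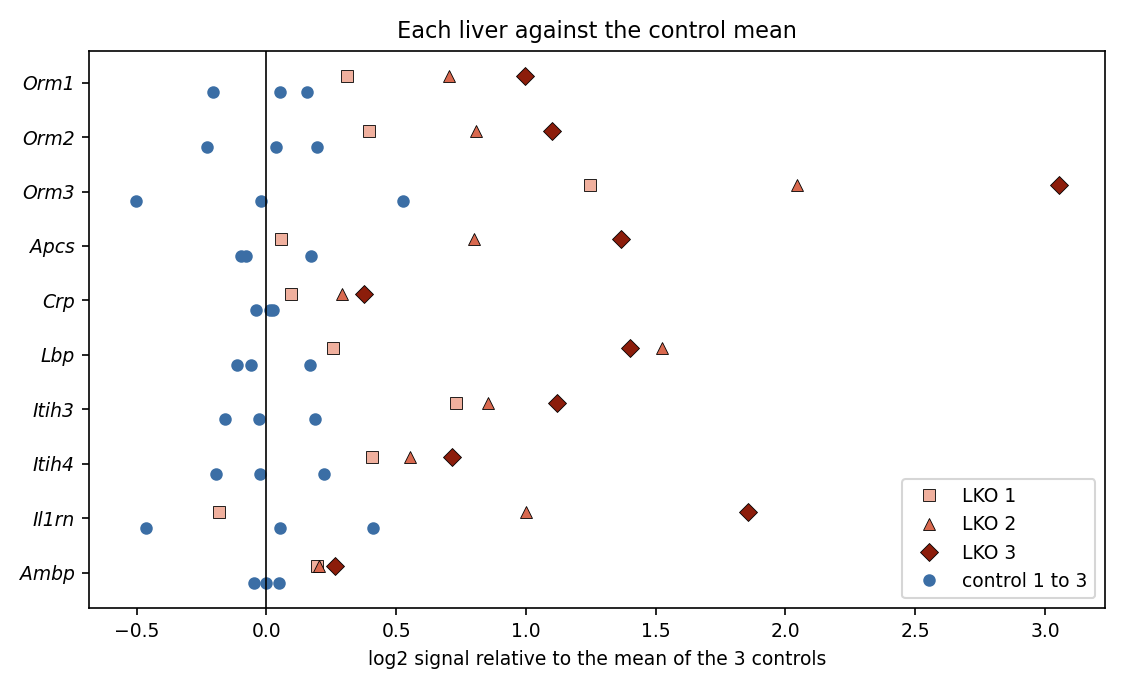
Log2 scaled signal of each gene in each liver relative to the mean of the 3 controls; squares, triangles and diamonds are LKO 1, LKO 2 and LKO 3, and blue circles are the controls. LKO 1 is the leftmost LKO symbol in every row, and LKO 3 is the rightmost in all rows but that of Lbp.

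The slide column bears on these values, since LKO 1 was the only LKO liver in the column that held the controls. Within that column LKO 1 stood above the control mean by 2.37-fold for Orm3, 1.66-fold for Itih3, 1.32-fold for Itih4 and for Orm2, 1.24-fold for Orm1, 1.2-fold for Lbp and 1.14-fold for Ambp. It was 1.07-fold for Crp and 1.04-fold for Apcs, and for Il1rn LKO 1 was at a log2 value of -0.18 relative to the controls. LKO 2 and LKO 3, in the other column, exceeded LKO 1 by 3.05-fold for Il1rn, 2.47-fold for Orm3, 2.31-fold for Lbp and 2.04-fold for Apcs, but by 1.03-fold for Ambp and 1.17-fold to 1.19-fold for Itih4, Crp and Itih3. Among the LKO livers the column and the mouse cannot be told apart. With the column as a covariate, a fit that rests on LKO 1 alone against the controls, the median log2 change over the 10 genes was 0.28.

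Other positive acute phase genes were set beside these. Of 22 listed and tested, 22 had higher means in LKO, with a median log2 change of 0.75; 16 were higher at an unadjusted limma p under 0.05 and 0 passed the adjusted threshold. This list was chosen with its earlier result on these arrays known, so its direction is not independent evidence. The smallest p were those of Saa2 (11.1-fold) and Saa1 (9.74-fold), the serum amyloid A genes (both limma adjusted p = 0.100), and of Hpx, the haem-binding hemopexin, at 1.74-fold (limma adjusted p = 0.162). Saa1 had 115375, 148713 and 204817 in LKO livers, against 9624, 13953 and 28300 in control livers, with LKO 1 the lowest LKO liver and control 3 the highest control, as for the orosomucoids. The Saa genes are close copies too, and how far their probes separate them was not tested. The negative acute phase genes, whose proteins classically fall in inflammation, were listed as well. Of 13 tested, 10 were higher in LKO and 0 passed the adjusted threshold; their median log2 change was 0.07. The smallest p were those of Ttpa, the vitamin E transfer protein, at 1.33-fold higher (limma adjusted p = 0.30), of Igf1 at 1.17-fold higher (limma adjusted p = 0.462), and of Ttr, with the values given above.

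Of 19 genes of the interleukin 6, STAT3 and C/EBP pathway 17 were tested, with a median log2 change of 0.17, 3 higher and 1 lower at an unadjusted limma p under 0.05, and 0 past the adjusted threshold. Il6ra, the receptor subunit, was 1.57-fold higher (limma adjusted p = 0.301), Stat3 itself was 1.48-fold higher (limma adjusted p = 0.358), and Socs1, an inhibitor of JAK kinases, had a log2 change of -0.46 ± 0.17 (SE, limma adjusted p = 0.413). None of these 3 had overlapping groups. Il6 was well above background on 1 LKO array and 0 control arrays and was not tested. Socs3, a STAT3 target gene, had 345, 1171 and 1697 in LKO livers, against 243, 1300 and 522 in control livers, so control 2 stood above 2 of the LKO livers, unlike in any of the 10 genes.

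Of 12 pentraxin relatives, Fc receptors and complement C1q genes, 8 were tested, all of them Fc receptor or C1q genes, whose products bind pentraxins. All 8 had higher means with a median log2 change of 0.18, and 0 had an unadjusted limma p under 0.05; C1qb and C1qc were each 1.22-fold higher (limma adjusted p = 0.600 and 0.603) and Fcer1g 1.17-fold (limma adjusted p = 0.614). The other pentraxin genes Ptx3, Nptx1 and Nptx2 were above background on 0 arrays. Of 7 genes of the glucocorticoid receptor and its targets, 3 were higher, with a median log2 change of -0.15 and 0 past the adjusted threshold. Fkbp5 was 1.33-fold higher (limma adjusted p = 0.217), Dusp1 had a log2 change of -0.98 ± 0.41 (SE, limma adjusted p = 0.443), and Per1 one of 0.79 ± 0.46 (SE, limma adjusted p = 0.581). Orosomucoid genes respond to glucocorticoids in rat and mouse liver, which is why this list was included.

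**Figure D4:**
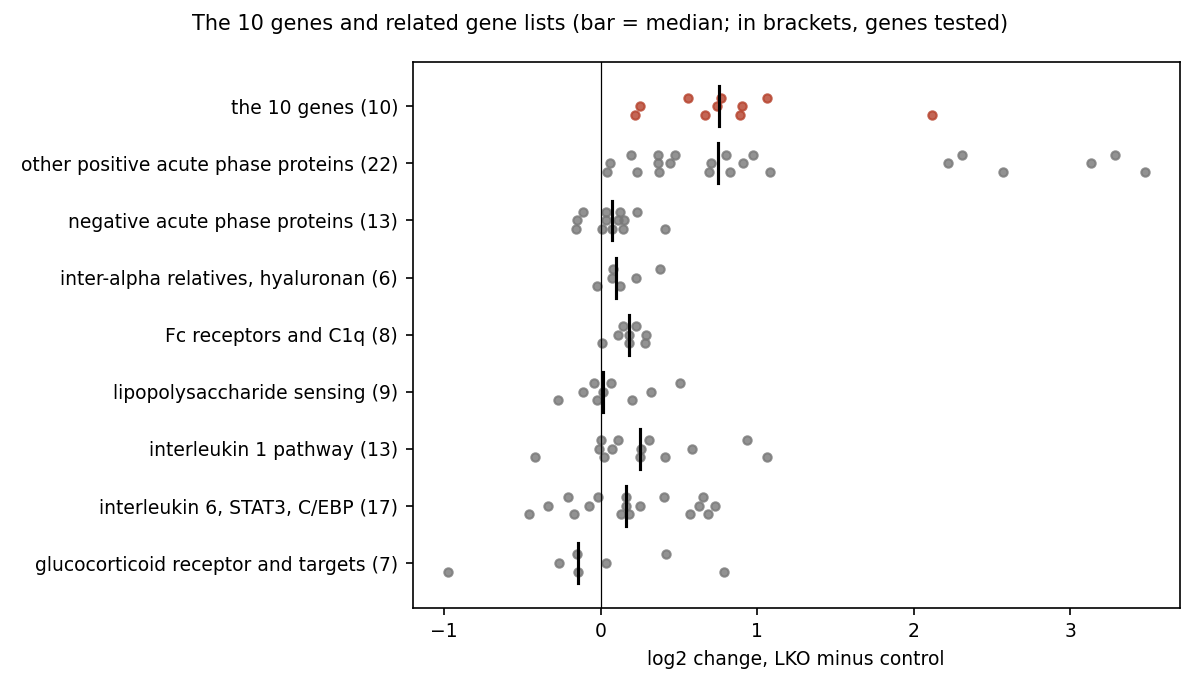
Log2 change, LKO minus control, of the 10 genes (red) and of the tested genes of 8 related lists (grey points, 1 per gene); vertical bars are medians and numbers in brackets count genes tested. The 10 genes and the other positive acute phase genes have medians of 0.75, and the other lists have medians between -0.15 and 0.25.

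The genes outside the set whose values over the 6 arrays followed the mean of the 10 genes most closely were Serpina3n, a protease inhibitor of the acute phase (r = 0.995), Stat3 (r = 0.992), Cyb561, a cytochrome that transfers electrons across membranes (r = 0.992), Tmem176b, a membrane protein (r = 0.991), and Cep55, a centrosomal protein of cell division (r = 0.991). They were taken by rank from 1840 genes well above background on all 6 arrays with an SD of at least 0.3 on the log2 scale, and r was computed over 6 arrays that include the group difference. Serpina3n had 3780, 5950 and 6953 in LKO livers, against 2716, 3173 and 3255 in control livers. Cyb561 had 1225, 2152 and 2451 in LKO livers, against 741, 865 and 1018 in control livers. In each of the 5 genes the LKO livers stood in the order 1, 2, 3 from low to high, above all controls. The 5 were picked for following the mean of the 10 genes, which has this pattern, so it is not independent evidence. Their differences ranged from 1.41-fold for Tmem176b to 2.83-fold for Cep55, with limma adjusted p from 0.208 to 0.358.

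Markers of lymphocytes and plasma cells and of adipose and pancreatic tissue were measured as well. Of 10 lymphocyte and plasma cell markers 8 were tested, 3 with higher and 5 with lower means in LKO and a median log2 change of -0.05; 2 were lower at an unadjusted limma p under 0.05 and 0 passed the adjusted threshold. Jchain, the joining chain of secreted antibodies, had 27.7, 28.9 and 34.9 in LKO livers, against 54.6, 39.9 and 84.2 in control livers, without overlap (log2 change -0.90 ± 0.26, SE, limma adjusted p = 0.307). Cd3g, a subunit of the T cell receptor complex, had a log2 change of -0.64 ± 0.24 with a dim probe and overlapping groups (SE, limma adjusted p = 0.401). Cd3e, of the same complex, was 1.13-fold higher without overlap (limma adjusted p = 0.559). The summed signal of the lymphocyte list, most of it from the probe of Cd4, ranged from 18198 to 21864 in LKO livers and from 16725 to 23454 in control livers, with Cd8a and Cd79a above background on no array. Of 8 adipose and pancreas markers 4 were tested, 3 with higher and 1 with a lower mean, a median log2 change of 0.07 and 0 at an unadjusted limma p under 0.05. Those with the smallest p were Cela2a at 1.38-fold higher (limma adjusted p = 0.503), Lep at 1.06-fold higher (limma adjusted p = 0.774) and Ctrb1 at a log2 change of -0.06 (limma adjusted p = 0.909). The summed signal of this list ranged from 2351 to 2718 in LKO livers and from 2211 to 2564 in control livers, with Ins2 and Prss2 above background on no array. The summed hepatocyte markers ranged from 1297820 to 1368810 in LKO livers and from 1322540 to 1430430 in control livers. These sums are led by the brightest probes and do not show how the dimmer markers moved.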

How the data were processed

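Total RNA of 6 livers was labelled with Cy3 and hybridised to one-colour Agilent arrays, and Agilent Feature Extraction 11.5.1.1 wrote the deposited files, as the submitters' processing notes and the headers state. The processed signal, an intensity that the software had corrected for background and detrended, was used as deposited, per the file headers, and the raw median and local background intensity columns served one alternative. Flags for spots above background, outliers and saturation are other deposited columns. The authors' value table holds a linear signal, which the comparison with the scanner files showed to be the processed signal times 1 constant per array, between 2.08 and 2.48; how the constants were chosen is not stated.

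Here, log2 processed signals were scaled to each array's 75th percentile, control and outlier spots were left out, and spots of a probe were averaged. Of the 56605 probes, 32994 had 1 RefSeq symbol through their accession, 0 had several and 23611 had none. Where a gene had several probes, the brightest on average stood for it, and the gene was tested if the above-background flag was set on all 3 arrays of either group, which left 14171 genes. LKO and control livers were compared with limma 3.58.1 in R 4.3.3 (lmFit, eBayes), and p-values were adjusted over these genes by Benjamini-Hochberg, with 0.05 as the threshold. The fit was tested on simulated data. Single values and within-liver ratios were tested with exact permutation tests over mice. Each array is 1 mouse, and 3 mice per group limit the precision. Promoters were compared with Biopython 1.88.

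The 10 genes, the related lists and the tests were chosen with earlier results of these data known. From each related list up to 3 genes with the smallest p are named, and the 5 genes most like the 10 by Pearson's r. Il1b, Socs3, Camp, Elane, Csf3r and Cd4 fall outside this rule and were chosen after their values were seen. The alternatives were 3 other normalizations, the authors' table, 2 other filters, the mean of a gene's probes, another variance model, the replicate block, the slide column, and leaving out each mouse.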

Additional observations from a re-analysis of the deposited data

How the results depend on the processing

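All 10 genes stayed higher in LKO livers in 15 of the 16 alternatives. The authors' table, the 2 other filters, the other variance model and the replicate block left these log2 changes as reported. In those the direction could not differ. In the remaining alternative, with the slide column as a covariate, the log2 change of Il1rn was -0.18, and those of C1qb and Per1 were -0.018 and -0.12. That covariate rests on LKO 1 alone against the controls by its construction. It gave a median over the 10 genes of 0.28. The log2 changes with it were 0.34 for Nfkbiz, 0.62 for Retnlg, 0.50 for Cyb561 and 0.79 for Cep55, each more than 1.5 times below the fold reported. Normexp background correction gave -5.62 for Elovl6 and 0.89 for Cep55. The pancreatic marker Ctrb1, at a log2 change of -0.06, came to 0.19 with the slide column as a covariate. It ranged from -0.19 to 0.094 when a mouse was left out, the highest being without LKO replicate 3. The number of genes past the adjusted threshold, 2 as reported, was 1 with no filter on dim probes, 1 with probes above background on all arrays, 13 with a trended and robust variance, and 1 to 15 when a mouse was left out; the cause was not tested. Of the 10 genes, 0 to 1 passed when a mouse was left out, the 1 being Lbp without LKO replicate 1 (log2 change 1.46, limma adjusted p = 0.0324). In the same fits the median over the 10 genes was 0.49 to 0.97, and 6 to 10 of them were higher at an unadjusted limma p under 0.05. Over the array, 555 to 1055 genes were higher at that p, of 14199 to 14395 tested. When a mouse was left out, 8 to 10 of the 10 genes did not overlap. The share of all genes without overlap was not computed for these fits, and 2 mice against 3 separate more easily than 3 against 3. With all mice, 7 of the 10 did not overlap under quantile normalization, 7 under normexp and 8 under median scaling. That share was not computed there either. At an unadjusted limma p under 0.05, 8, 8 and 7 of the 10 were higher. Over the array, 789 of 14171, 853 of 14167 and 523 of 14171 genes were higher at that p. When a mouse was left out, the log2 difference of Orm3 and Orm1 was 1.14 to 1.70 and of Orm3 and Orm2 1.04 to 1.6. That of Orm2 and Orm1 was 0.09 to 0.12, and of Apcs and Crp 0.24 to 0.75. With all mice, the difference of Orm2 and Orm1 was 0.175 under quantile normalization and 0.170 under normexp, against 0.10 as reported. With median scaling, 34.3% of all genes at an unadjusted p under 0.05 were higher in LKO, against 49.8% as reported; the median of all genes shifted by -0.04, and all 10 genes remained higher.

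Mice with the same replicate number in the titles are not stated to be litter mates. Deviations of same-numbered livers correlated at 0.04, -0.05 and -0.07, and 0 of 3 LKO mice correlated best with their own number. So few correlations cannot decide whether the mice were paired. With the replicate block 3 genes of the array passed, among them Saa2 (limma adjusted p = 0.0222) and Saa1 (limma adjusted p = 0.0274). Of the 10 genes, 0 were past the threshold and 7 were higher at an unadjusted limma p under 0.05. At that p 667 of the 14171 genes tested were higher in LKO. Dim probes such as those of Il1rn lie nearest to background, which limits what their values can show.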
